A study of Mus musculus with 31 samples.

Results

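The members described here are the nuclear genes of respiratory chain complexes I to IV: every gene whose symbol in the array's probe annotation begins with Nduf, Uqcr, Cox4i, Cox5, Cox6, Cox7 or Cox8, together with Sdha, Sdhb, Sdhc, Sdhd and Cyc1. The rule gave 73 genes of the 19939 genes on the array that had a probe set of their own. By role, 41 belong to complex I (6 core subunits, 28 supernumerary subunits and 7 assembly factors), 4 to complex II, 9 to complex III and 19 to complex IV. Ndufa4, named for complex I, was counted with complex IV, where the protein is now placed. Of the 19 in complex IV, 10 are general subunits, 8 are tissue-restricted isoforms and 1 is Cox7a2l, a factor that joins complexes III and IV into supercomplexes.

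Complex I oxidises NADH and complex II oxidises succinate, and both pass electrons to ubiquinone. Complex III carries them on to cytochrome c and complex IV hands them to oxygen, and the protons pumped on the way drive ATP synthase. Blood stem cells are known for leaning on glycolysis, dividing progenitors for turning to respiration, and neutrophils for a glycolytic metabolism with few mitochondria. The protein genes of mitochondrial DNA encode core subunits of complexes I, III and IV and parts of ATP synthase. They were not analysed here, since 0 of 13 had a probe set of their own.

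The study measured RNA from 9 populations sorted from the bone marrow of wild-type C57BL/6 mice, in 3 to 5 arrays each and 31 in all, with no treatment. All stem and progenitor cells were sorted as negative for lineage markers and positive for cKit. Long-term stem cells (LT-HSC, 4 arrays) were Sca1+/Flk2-/CD48-/CD150+ and short-term stem cells (ST-HSC, 3 arrays) were Sca1+/Flk2-/CD48-/CD150-. The multipotent progenitors were MPP2 (Sca1+/Flk2-/CD48+/CD150+, 3 arrays), MPP3 (Sca1+/Flk2-/CD48+/CD150-, 3 arrays) and MPP4 (Sca1+/Flk2+, 5 arrays). Common myeloid progenitors (CMP, 3 arrays) lacked the Fc gamma receptor and carried CD34, and granulocyte-macrophage progenitors (GMP, 4 arrays) carried both. Pre-granulocytes (PreGr, 3 arrays) were Mac1+ with intermediate Gr1, and granulocytes (Gr, 3 arrays) were Mac1+ with high Gr1. RNA came from 20000 sorted cells per sample and was amplified before labelling. The replicates are called biological, and neither sex nor pooling of animals is given.

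The deposited arrays fell into 5 sets with their own median level. Numbered 1 to 5, the sets are LT-HSC 1 to 3; LT-HSC 4 with MPP3 3, MPP4 4, MPP4 5 and GMP 4; ST-HSC and MPP2 with MPP3 1 and 2; MPP4 1 to 3 with CMP; and GMP 1 to 3 with PreGr and Gr. Arrays were therefore brought to one distribution by quantile normalization. Changes are log2 differences from a fit with a term for the set, and a gene was called at an adjusted p under 0.05 over all 19939 genes. Direct comparisons within 1 set exist for MPP2 and MPP3 against ST-HSC, CMP against MPP4, PreGr against GMP and Gr against PreGr. Every comparison with LT-HSC rests on LT-HSC 4, and those of ST-HSC, MPP2 and MPP3 rest also on MPP3 3, the only link between their set and that of LT-HSC 4. The comparison of GMP with CMP rests on GMP 4, linked through MPP4 4 and 5.

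The sort markers followed the labels, though Flt3 RNA was uneven among the populations sorted as Flk2-. Slamf1, which encodes CD150, was at log2 values of 7.83 to 9.17 in LT-HSC against 4.68 to 5.34 in ST-HSC, lowest in LT-HSC 4. Flt3, which encodes Flk2, was at 10.71 to 11.90 in MPP4 and at most 10.04 elsewhere. Among the populations sorted as Flk2-, it was at 9.86 to 10.04 in ST-HSC and 9.56 to 9.81 in MPP3. LT-HSC was at 7.89 to 8.50 and MPP2 at 7.81 to 8.72. Ly6g, one of the proteins that Gr1 antibodies bind, was at 10.71 to 11.81 in PreGr and 12.73 to 12.88 in Gr. Gr 1 stood nearer to PreGr than the other Gr arrays in Itgam (Mac1), at 11.27 against 12.14 and 12.33, with PreGr at 10.22 to 10.56. It also did so in Cd48, at 10.20 against 8.47 and 7.78, with PreGr at 10.75 to 11.12. LT-HSC 4, GMP 4, MPP4 4 and Gr 1 stood apart from their groups in several members, and values that rest on them are given with the array named.

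On the quantile-normalized scale the subunits of complexes I to IV had low levels in ST-HSC and Gr, which were not separable. The complex I assembly factors were lowest in Gr, and complexes I to III had their highest mean in GMP. GMP and CMP were not separable for complex III once the set was taken into account. The level of a complex in an array is the mean, over its members, of the deviation of each from its own mean over the 9 populations, on the quantile-normalized log2 scale. For the 34 complex I subunits the population mean level ran from -0.309 ± 0.098 (SD, n = 3) in ST-HSC, through -0.151 ± 0.087 (n = 3) in MPP3, -0.165 ± 0.113 (n = 5) in MPP4 and -0.018 ± 0.026 (n = 3) in MPP2, to 0.184 ± 0.061 (n = 3) in CMP and 0.395 ± 0.092 (n = 4) in GMP. PreGr stood at 0.266 ± 0.061 (n = 3), LT-HSC at 0.04 ± 0.317 (n = 4) and Gr at -0.24 ± 0.393 (n = 3). The wide spread in Gr came from Gr 1, at 0.188 against -0.324 and -0.585 for the other Gr arrays. LT-HSC spread as widely, with LT-HSC 4 at -0.391 and the other 3 arrays between -0.006 and 0.292. Gr 2 and Gr 3 lay within or below the range of ST-HSC arrays in complexes I to IV, so on this scale the order of ST-HSC and Gr rests on Gr 1. In the set-adjusted fit complex II was lowest in LT-HSC, at -0.340, and complex III in Gr, at -0.375, with ST-HSC at -0.064 and -0.251. Complex III was at 0.384 in GMP and 0.356 in CMP there. MPP3 and MPP4 did not differ beyond their spread, nor did LT-HSC from its neighbours in this order.

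**Figure D1:**
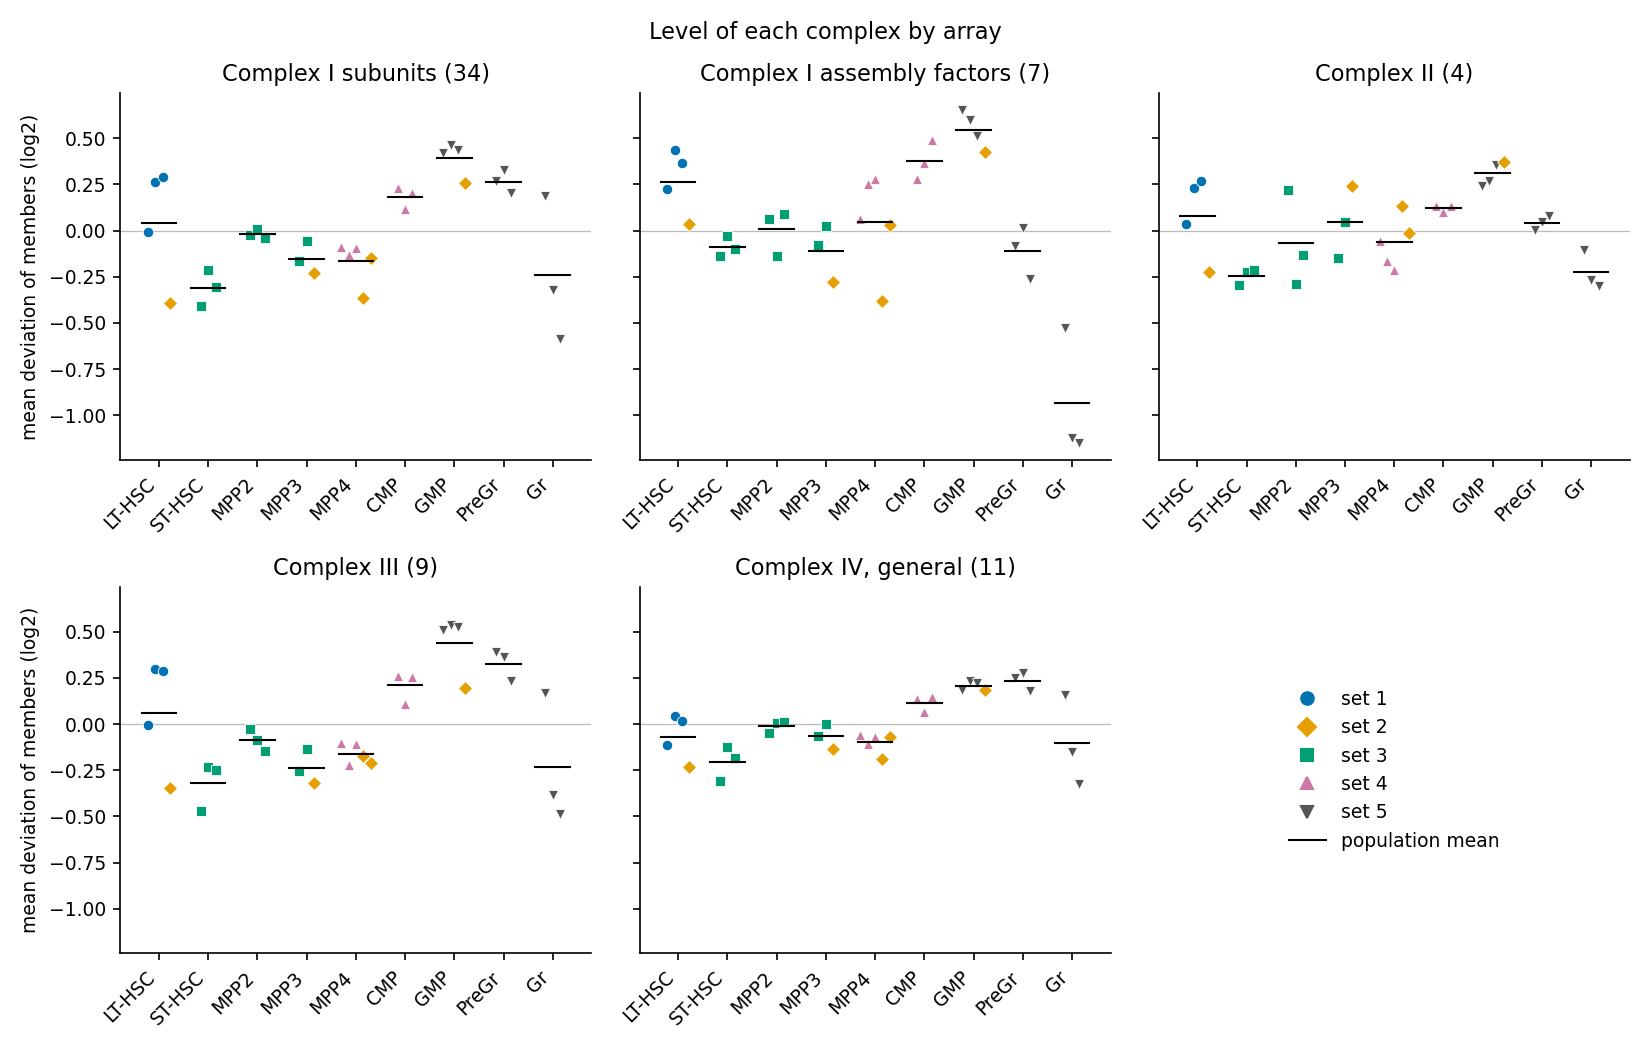
Level of each complex in all 31 arrays, as the mean log2 deviation of its members from their means over the 9 populations, with colour and shape giving the array set and bars giving population means. GMP arrays of set 5 lie at 0.421 to 0.463 for complex I subunits, and Gr 1 lies at 0.188 while Gr 2 and Gr 3 lie at -0.324 and -0.585.

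Complex III ran beside complex I, from -0.318 ± 0.134 (n = 3) in ST-HSC to 0.442 ± 0.166 (n = 4) in GMP and -0.234 ± 0.352 (n = 3) in Gr. Complex II ran from -0.243 ± 0.047 (n = 3) in ST-HSC to 0.309 ± 0.063 (n = 4) in GMP. The 11 general members of complex IV, Cox7a2l included, ran from -0.205 ± 0.095 (n = 3) in ST-HSC to 0.234 ± 0.052 (n = 3) in PreGr, where GMP at 0.207 ± 0.025 (n = 4) did not differ beyond the spread. The 7 assembly factors of complex I followed another course. They stood at 0.546 ± 0.100 (n = 4) in GMP, at -0.111 ± 0.141 (n = 3) in PreGr and at -0.934 ± 0.351 (n = 3) in Gr, so that PreGr was already below every GMP array. With medians brought together in place of whole distributions, GMP stayed at the top for complexes I to III. The levels then lay further apart, from -0.569 in ST-HSC to 0.627 in GMP for complex I. Gr lay above ST-HSC on that scale, at -0.176, -0.148, -0.173 and -0.025 for complexes I to IV. ST-HSC was at -0.569, -0.476, -0.584 and -0.524, so how low Gr stands depends on the scaling.

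Gene by gene, 29 of the 73 members had their highest population mean in GMP, 16 in PreGr and 10 in CMP, while 26 had their lowest in Gr, 18 in ST-HSC and 10 in MPP4. The widest ranges over the 9 population means belonged to 3 complex I assembly factors, Ndufaf4 at 2.53, Ndufaf2 at 2.30 and Ndufaf6 at 2.14 log2 units. Cox6b2, known as the testis isoform of a complex IV subunit, came next at 1.96. The narrowest was Cox4i2, a lung isoform of complex IV, at 0.30.

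**Figure D2:**
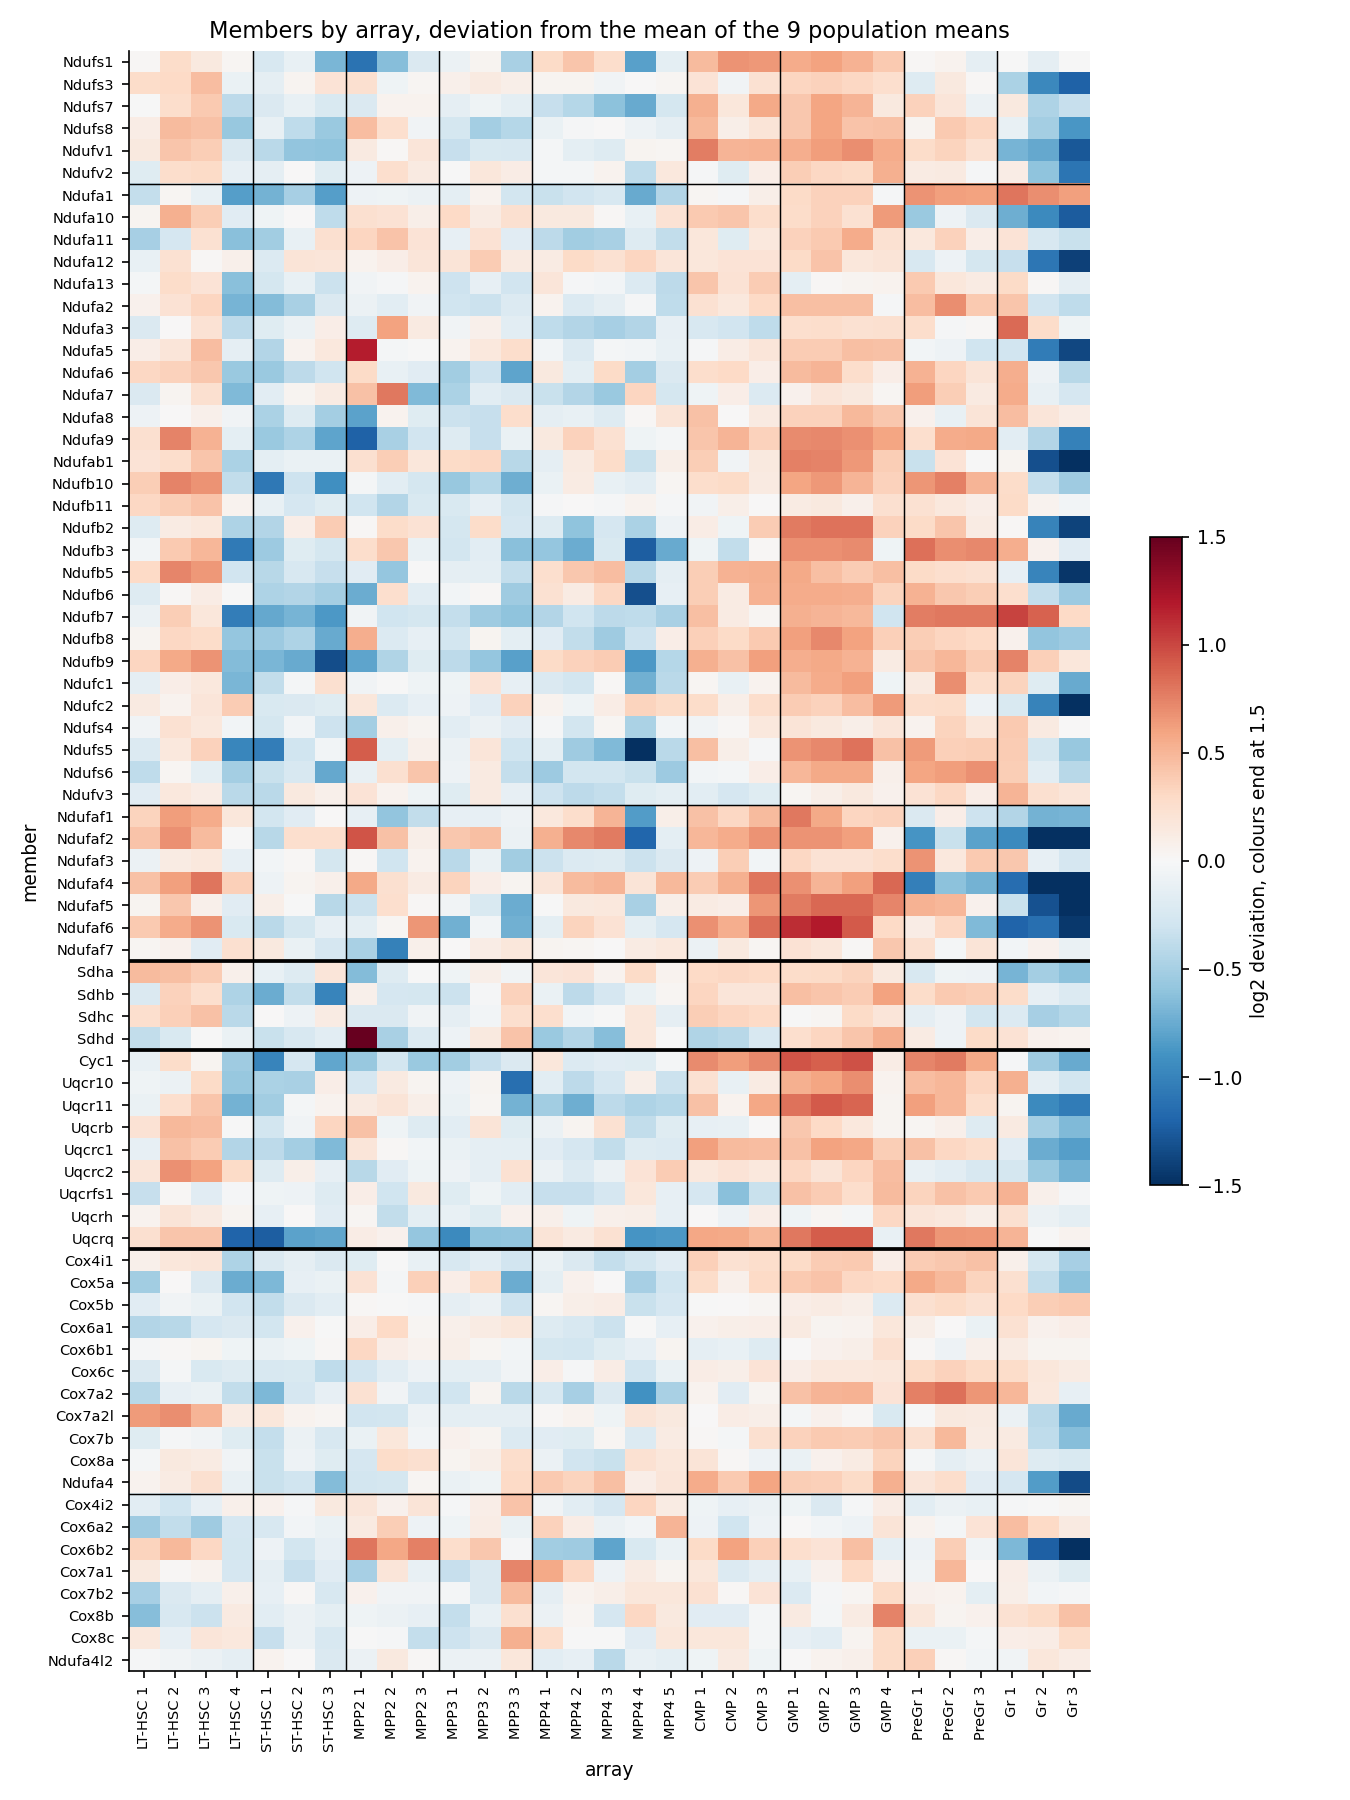
Log2 deviation of each of the 73 members from its mean over the 9 populations in every array, with members grouped by complex and role and colours ending at 1.5 in either direction. The assembly factors Ndufaf2, Ndufaf4 and Ndufaf5 are lowest in Gr 2 and Gr 3, and Ndufa1 is highest in PreGr and Gr.

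Granulocytes were compared with pre-granulocytes within a single set, 3 arrays against 3. Of the 73 members, 36 fell and 0 rose, beside 14% of all genes that fell and 12.5% that rose. The members' median change was -0.47 log2, against 0.02 for all genes. By complex, 23 of 41 fell in complex I, 1 of 4 in complex II, 5 of 9 in complex III and 7 of 19 in complex IV. The fit without sets called 31 of the 36, beside 11.2% of all genes lower in both fits. Without Gr 1 the fit called 45 members, all of them lower, with a median change of -0.59. Without Gr 2 it called 28, with a median of -0.43, and without Gr 3 27, with a median of -0.31, all lower.

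In complex I the core fell along with the rest: 4 of 6 core subunits, 15 of 28 supernumerary subunits and 4 of 7 assembly factors, whose median change was -1.05. Ndufv1, the subunit that binds NADH and takes the first electrons, was at log2 values of 9.43, 9.48 and 9.38 in PreGr and 8.45, 8.39 and 7.88 in Gr. All Gr arrays lay below all PreGr arrays, and Ndufv1 fell by 1.19 (SE 0.12, adjusted p = 6.73e-08). Ndufaf5, an assembly factor that modifies the core subunit Ndufs7, had the largest fall of all members. Its values were 9.24, 9.21 and 8.78 in PreGr and 8.38, 7.40 and 7.16 in Gr, which did not overlap, with Gr 1 the nearest to PreGr. The change was -1.43 (SE 0.23, adjusted p = 5.69e-05), or -1.79 without Gr 1.

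Ndufaf6, another assembly factor, fell by 1.18 (SE 0.21, adjusted p = 1.87e-04), and Ndufb5, a subunit of the membrane arm, by 1.12 (SE 0.21, adjusted p = 2.01e-04). The other core subunits that fell were Ndufs3 (-0.87), Ndufs8 (-0.75) and Ndufv2 (-0.61). Ndufs1, the iron-sulfur protein next to Ndufv1, stood at 9.18, 9.22 and 9.03 in PreGr and 9.16, 9.02 and 9.16 in Gr, a change of -0.03. Its values overlapped. Ndufa1, a small membrane subunit encoded on the X chromosome, was at 12.46, 12.40 and 12.39 in PreGr and 12.58, 12.48 and 12.39 in Gr and was not called.

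Of the 4 complex II members, Sdha alone was called with all arrays, and 3 were called without Gr 1. Sdha, the flavoprotein that oxidises succinate, was at 10.28, 10.46 and 10.44 in PreGr and 9.83, 10.01 and 9.91 in Gr. The groups did not overlap, and Gr 1 did not stand apart here, with a change of -0.48 (SE 0.12, adjusted p = 4.28e-03). Sdhb, the iron-sulfur subunit, changed by -0.36 (SE 0.15, adjusted p = 8.81e-02), and by -0.51 without Gr 1 (adjusted p = 2.12e-02). The membrane anchors were not called with all arrays, Sdhc at -0.22 (SE 0.10, adjusted p = 0.137; -0.30 and 4.76e-02 without Gr 1) and Sdhd at -0.003 (SE 0.30, adjusted p = 0.997).

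Cyc1, the haem-bearing cytochrome c1 of complex III, was at 10.55, 10.59 and 10.38 in PreGr and 9.79, 9.29 and 9.06 in Gr. It fell by 1.13 (SE 0.17, adjusted p = 1.73e-05), with no overlap. Uqcr11, a small subunit of the same complex, fell by 1.11 (SE 0.21, adjusted p = 2.42e-04) and Uqcrc1, one of the large core proteins on the matrix side, by 0.92 (SE 0.14, adjusted p = 2.82e-05). Uqcrfs1, the Rieske iron-sulfur protein that is the other catalytic member, changed by -0.19 and was not called, and without Gr 1 it changed by -0.36 (adjusted p = 4.82e-02). The count in complex III rested on single arrays, with 8 of 9 lower without Gr 1 and 3 of 9 without Gr 2 or without Gr 3.

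In complex IV, 5 of 10 general subunits fell. Cox4i1, a subunit that tunes the activity of the complex, was at 12.39, 12.41 and 12.45 in PreGr and 12.09, 11.74 and 11.50 in Gr, a fall of 0.64 (SE 0.10, adjusted p = 4.15e-05). Ndufa4 fell by 0.90 (SE 0.17, adjusted p = 2.63e-04) and Cox5a by 0.71 (SE 0.18, adjusted p = 3.79e-03). Cox7a2l fell by 0.50 (SE 0.11, adjusted p = 1.15e-03), from 11.55, 11.70 and 11.69 to 11.47, 11.16 and 10.81. The other 5 general subunits were not called, among them Cox5b, at 12.35, 12.39 and 12.34 in PreGr and 12.41, 12.48 and 12.50 in Gr.

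**Figure D3:**
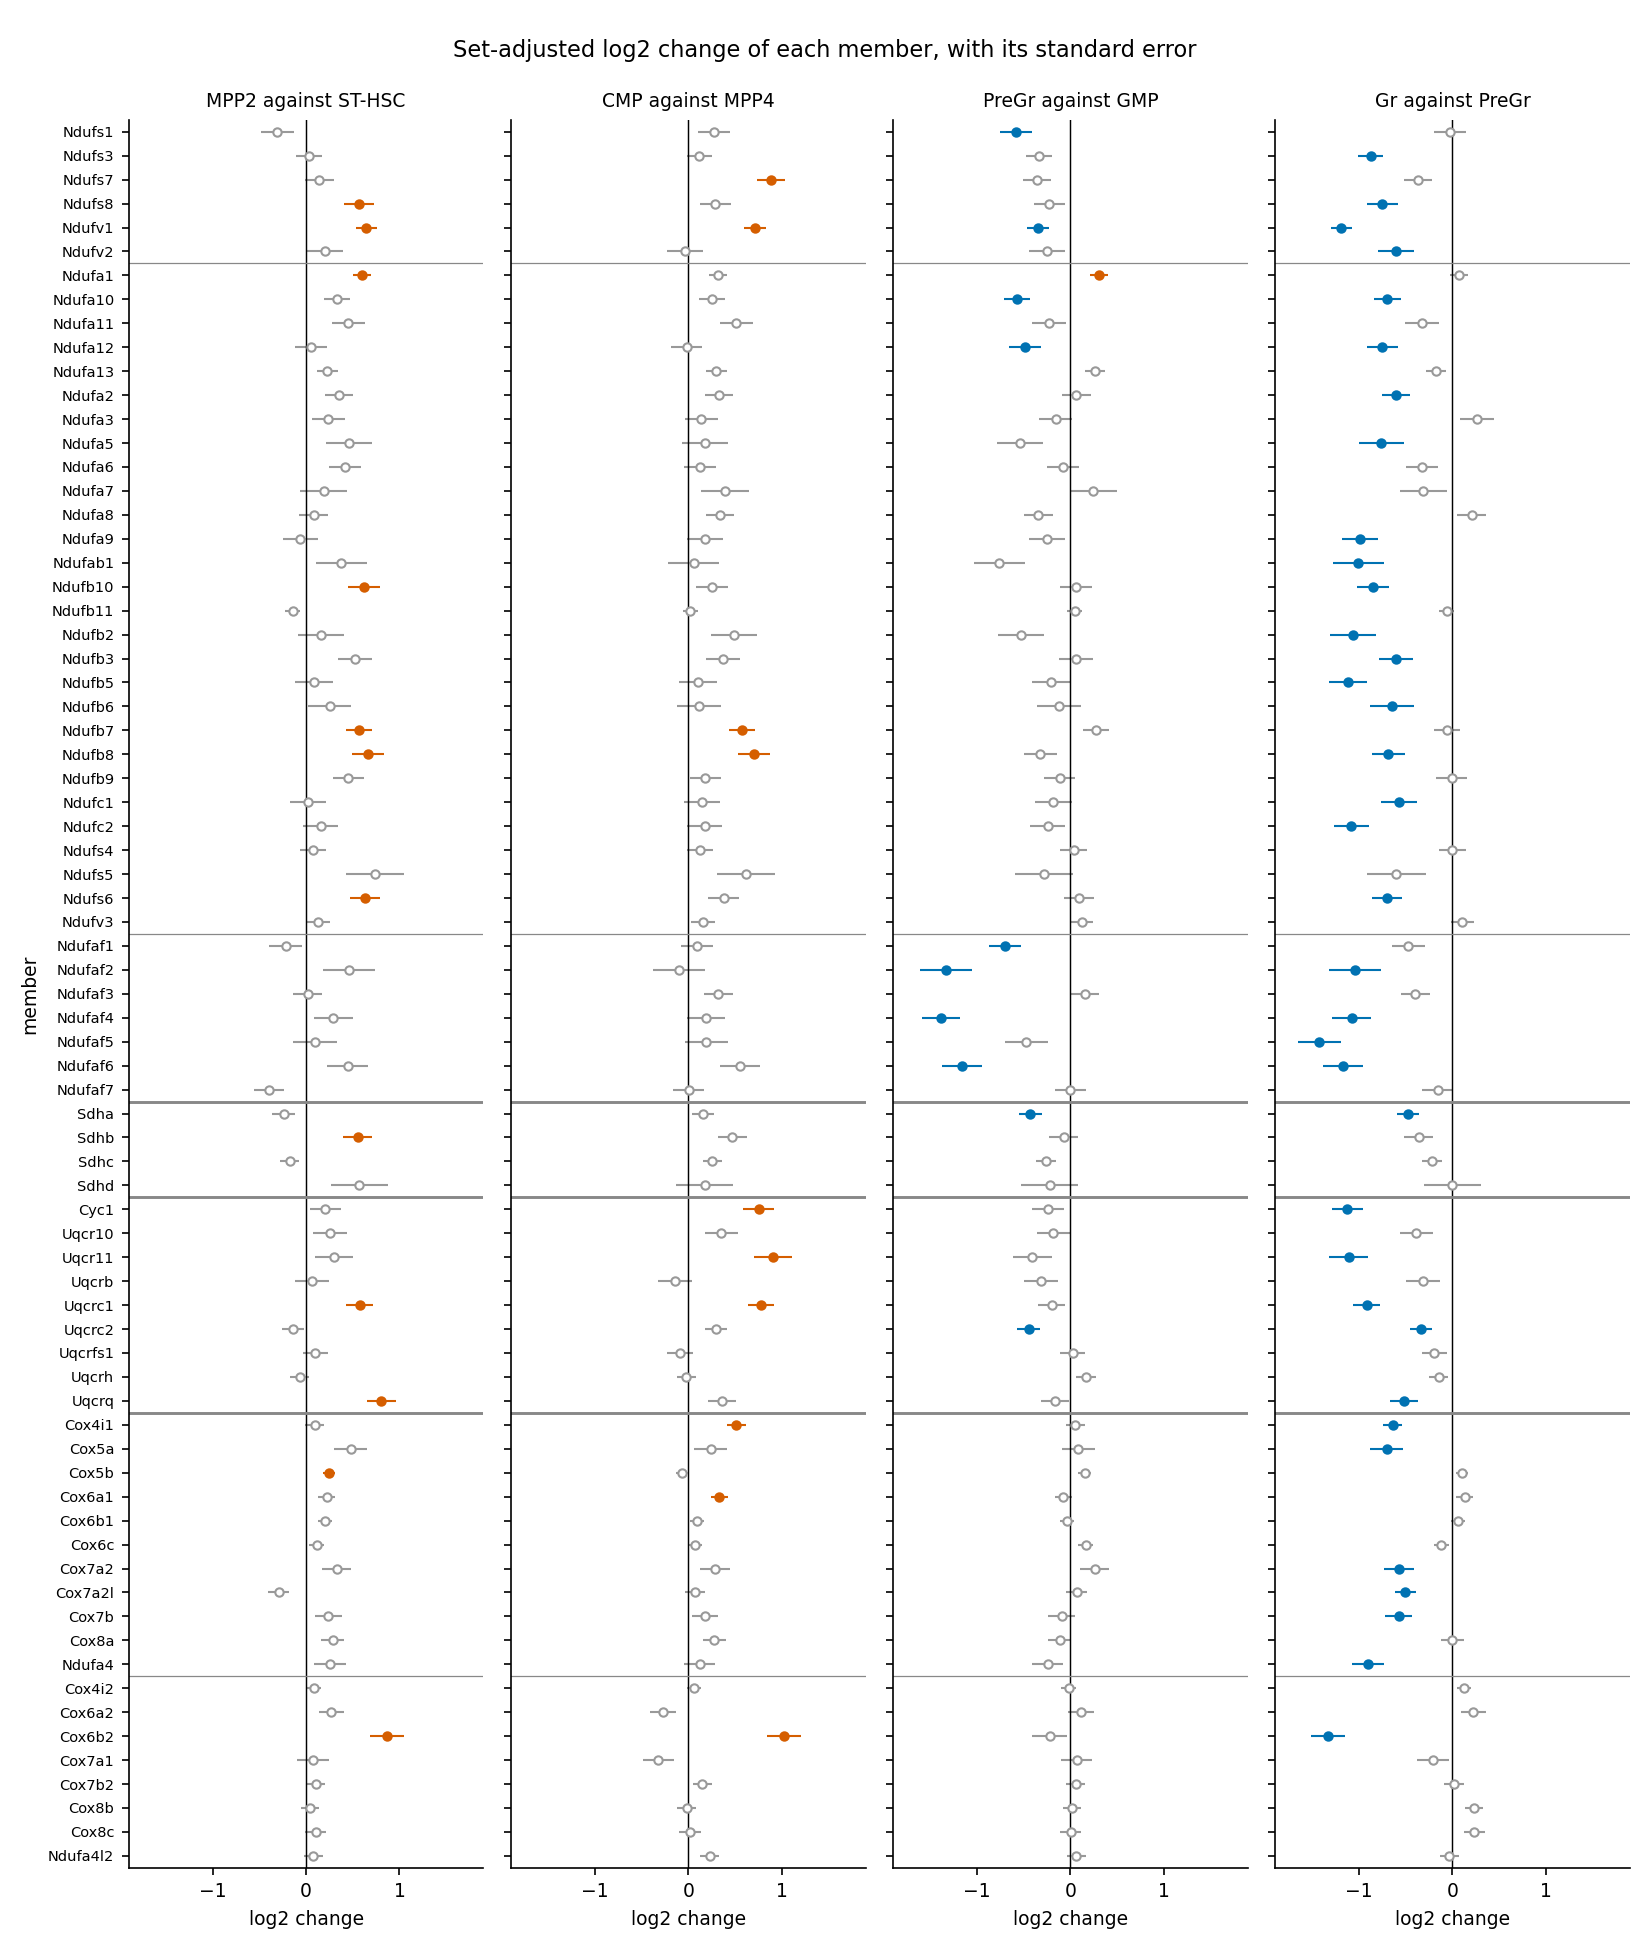
Set-adjusted log2 change of each member with its standard error in 4 comparisons within a set, grouped by complex and role, filled orange where it rose and blue where it fell at an adjusted p under 0.05. In Gr against PreGr 36 members are blue and 0 orange, and in MPP2 against ST-HSC and CMP against MPP4 the called members, 12 and 10, are all orange.

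Other cells' markers moved as well between these groups. The 8 measured markers of B and plasma cells averaged log2 values of 7.78 to 8.17 in PreGr and 7.94 to 8.79 in Gr. Of them 3 rose and 1 fell. The 9 markers of T and NK cells averaged 7.11 to 7.19 and 7.23 to 7.45, with 3 higher and 2 lower. The 8 markers of monocytes and macrophages averaged 9.22 to 9.55 in PreGr and 8.35 to 8.86 in Gr, where 6 fell and 2 rose. Their part in the members' changes was not tested. In sorted bulk RNA on a common scale, fewer cells of a type and less RNA per cell cannot be told apart, and a fall in all RNA together is not seen.

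Promoters were read for motifs of 3 factors known to drive respiratory chain genes, because so many members moved together. RefSeq windows of 300 bases in build GRCm38.p6, from 250 before to 50 after the start, matched 58 of the 73 members. The NRF1 motif, whose matches appear in capitals in the windows of Ndufaf5 and Sdha, was searched on both strands like the others and was in 12 of 58 (20.7%) and in 4.78% of 27025 promoters of that length. The GABPA motif CCGGAAG was in 12 (20.7%) against 9.12%, and the YY1 motif AAGATGGCG in 5 (8.6%) against 1.49%. None of these motifs contains another. Among the 30 members with a window that fell in Gr, 6 held the NRF1 motif, 4 the GABPA motif and 3 the YY1 motif. Among the 28 that did not fall the counts were 6, 8 and 2.

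The windows of 3 members are shown, for complexes I, II and III in turn, each from the member of that complex with the largest fall in Gr among those whose window held a motif. In complex IV no member that fell had a motif in its window. The windows were chosen after the values were seen, and capitals mark the motif matches. That of Ndufaf5 is chr2:140170396-140170695 on the plus strand, with an NRF1 match from base 17 after the start. That of Sdha is chr13:74350191-74350490 on the minus strand, with 3 NRF1 matches. That of Uqcr11 is chr10:80406772-80407071 on the minus strand, with a GABPA match. A match is a string of letters and not evidence of binding.
Ndufaf5: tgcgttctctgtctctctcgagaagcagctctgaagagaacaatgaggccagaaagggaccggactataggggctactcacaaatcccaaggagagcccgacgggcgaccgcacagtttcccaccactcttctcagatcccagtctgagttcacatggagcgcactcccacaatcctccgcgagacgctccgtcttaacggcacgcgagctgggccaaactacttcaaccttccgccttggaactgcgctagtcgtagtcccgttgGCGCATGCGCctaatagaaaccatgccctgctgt
Sdha: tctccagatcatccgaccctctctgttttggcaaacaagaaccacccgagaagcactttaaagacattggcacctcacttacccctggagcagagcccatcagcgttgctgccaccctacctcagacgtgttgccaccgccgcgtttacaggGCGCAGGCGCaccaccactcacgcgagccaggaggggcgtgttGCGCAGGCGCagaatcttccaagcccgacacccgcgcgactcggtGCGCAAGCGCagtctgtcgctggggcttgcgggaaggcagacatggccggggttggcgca
Uqcr11: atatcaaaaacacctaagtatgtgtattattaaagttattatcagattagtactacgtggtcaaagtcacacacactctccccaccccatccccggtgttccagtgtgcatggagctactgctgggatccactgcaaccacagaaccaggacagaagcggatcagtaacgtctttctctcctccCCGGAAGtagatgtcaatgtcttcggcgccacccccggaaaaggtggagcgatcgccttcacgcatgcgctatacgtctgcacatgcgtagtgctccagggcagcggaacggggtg

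Pre-granulocytes were compared with GMP within the same set, 3 arrays against GMP 1 to 3, and the set-adjusted changes come from these. GMP 4, the only GMP array of another set, is fitted exactly and adds nothing to these changes or to the estimate of the spread. Of the members 10 fell and 1 rose, beside 11% of all genes that fell and 7.99% that rose, so the number that fell was near the background. The members' median change was -0.16, against 0.01 for all genes. In complex I, 4 of 7 assembly factors fell, with a median change of -0.70, and 4 of 34 subunits fell, with a median of -0.215. That difference between the groups of members was not tested.

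Ndufaf4, an assembly factor of the arm that meets ubiquinone, was at 10.14, 9.97, 10.08 and 10.32 in GMP and 8.44, 8.85 and 8.75 in PreGr. It was lower in every PreGr array and lower again in Gr, at 8.33, 7.15 and 7.32. The fall against GMP was 1.38 (SE 0.20, adjusted p = 2.25e-05). Ndufaf2, which helps to add the NADH-oxidising module, fell by 1.33 (SE 0.28, adjusted p = 9.91e-04). Ndufaf6 fell by 1.16 (SE 0.21, adjusted p = 3.18e-04), and Ndufaf1, a factor for the membrane arm, by 0.70 (SE 0.18, adjusted p = 5.39e-03). The other 3 assembly factors, Ndufaf3, Ndufaf5 and Ndufaf7, were not called.

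Sdha was at 10.80, 10.81, 10.86 and 10.66 in GMP and 10.28, 10.46 and 10.44 in PreGr, and the groups did not overlap. It fell by 0.43 (SE 0.12, adjusted p = 1.23e-02), a call that was lost without PreGr 1 at -0.37. Sdhb (-0.07), Sdhc (-0.26) and Sdhd (-0.22) were not called. In complex III Uqcrc2, the second large core protein, was at 10.56, 10.45, 10.58 and 10.71 in GMP and 10.14, 10.09 and 10.01 in PreGr. It fell by 0.45 (SE 0.12, adjusted p = 9.23e-03), again without overlap. In complex IV 0 of 19 members were called by limma with or without sets, 1 had an unadjusted p under 0.05, and the median change was 0.05. Ndufa1 rose by 0.31 (SE 0.10, adjusted p = 2.97e-02), which the fit without sets did not call (adjusted p = 6.72e-02).

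Markers of other cell types were higher in PreGr than in GMP. The B and plasma cell markers averaged 6.69 to 6.89 in GMP against 7.78 to 8.17 in PreGr, where 3 of 8 rose. T and NK cell markers averaged 6.29 to 6.60 against 7.11 to 7.19, with 5 of 9 higher. Monocyte and macrophage markers averaged 8.50 to 8.72 against 9.22 to 9.55, with 4 of 8 higher. Whether they bear on the assembly factors was not tested.

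**Figure D4:**
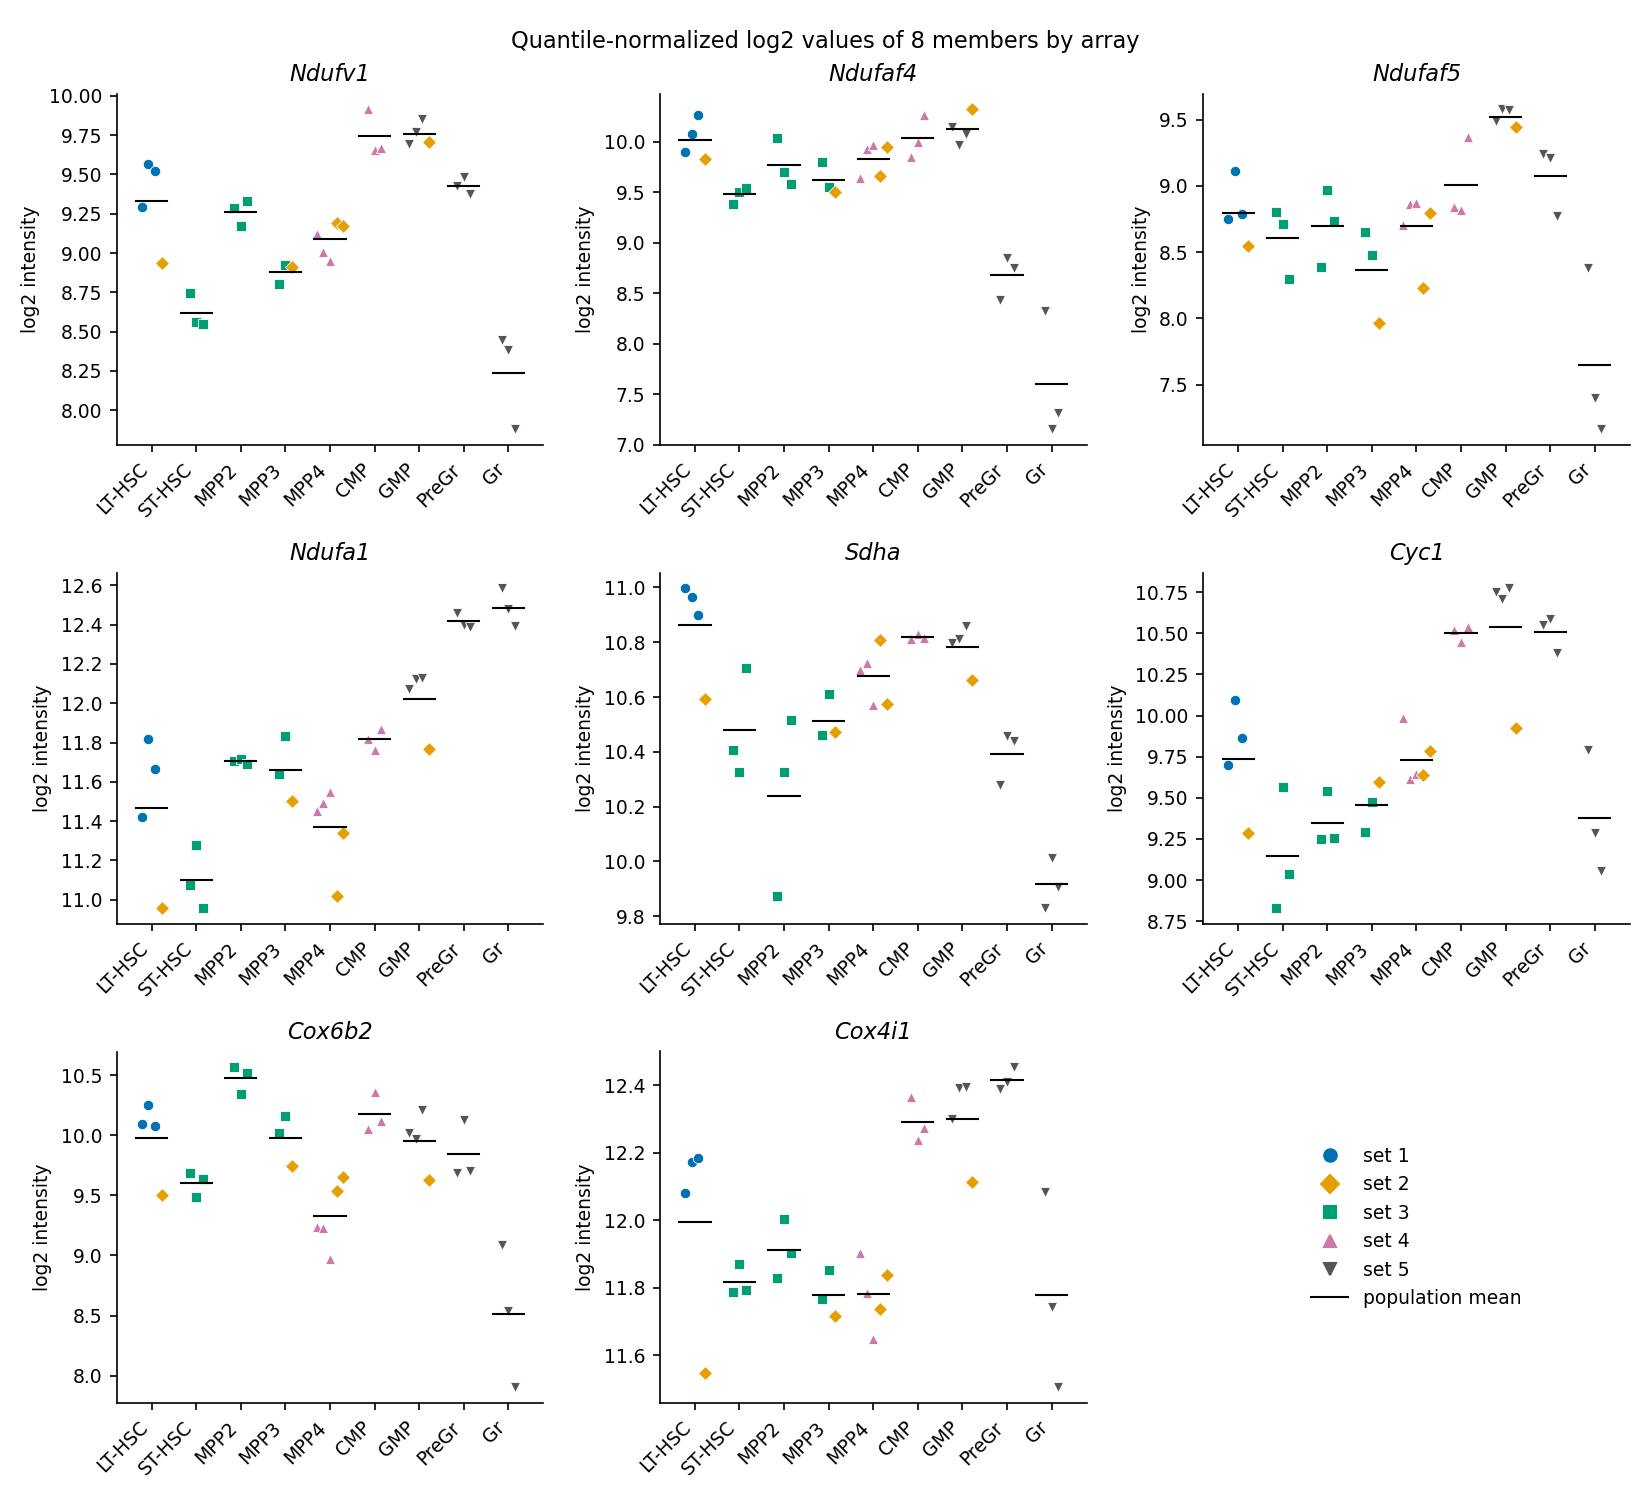
Quantile-normalized log2 values of 8 members in all 31 arrays, with colour and shape giving the array set and bars giving population means. Ndufaf4 drops in PreGr and again in Gr, Ndufa1 is highest in those populations, and GMP 4 lies below the other GMP arrays for Cyc1 (9.92 against 10.71 to 10.77).

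CMP were compared with MPP4 within 1 set, 3 arrays against 3, and the set-adjusted changes come from these arrays. MPP4 4 and 5, of another set, add only to the estimate of the spread. Of the members 10 rose and 0 fell, beside 4.41% of all genes that rose and 2.82% that fell, and 7 of the 10 were also called without sets, beside 2.57% of all genes higher in both fits. The median change of the members was 0.19, against 0.02 for all genes. By complex, 4 of 41 rose in complex I, 0 of 4 in complex II, 3 of 9 in complex III and 3 of 19 in complex IV. Without MPP4 3 the fit called 7, the lowest of the 31 leave-outs.

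Ndufs7, the core subunit with the last iron-sulfur centre before ubiquinone, was at 8.60, 8.51, 8.32, 8.19 and 8.68 in MPP4 and 9.48, 9.11 and 9.51 in CMP. All CMP arrays were above all MPP4 arrays, and it rose by 0.89 (SE 0.15, adjusted p = 8.87e-04). Ndufv1 rose by 0.72 (SE 0.12, adjusted p = 4.25e-04). Uqcr11 was at 8.94, 8.73, 9.07, 9.0 and 9.03 in MPP4 and 9.91, 9.51 and 10.04 in CMP, a rise of 0.91 (SE 0.21, adjusted p = 8.63e-03). Uqcrc1 rose by 0.78 (SE 0.14, adjusted p = 1.41e-03) and Cyc1 by 0.76 (SE 0.17, adjusted p = 6.83e-03).

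Cox6b2 had the largest rise. It was at 9.24, 9.23, 8.97, 9.54 and 9.65 in MPP4 and 10.05, 10.36 and 10.12 in CMP, a change of 1.03 (SE 0.18, adjusted p = 1.12e-03), and the groups did not overlap. Cox4i1 rose by 0.51 (SE 0.10, adjusted p = 2.84e-03). In complex II Sdhb was closest to the threshold, at 0.47 (SE 0.15, adjusted p = 6.38e-02), and Sdha, Sdhc and Sdhd changed by 0.16, 0.26 and 0.18. Of the 10 members that rose here, 7 were among the 36 of 73 members that fell in Gr against PreGr. The arrays compared differ, but both comparisons take each gene's spread from the same fit and are not independent. The overlap was not tested.

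The count depends on the scaling. With medians brought together in place of whole distributions, and the set kept in the fit, 33 members rose, with 13.2% of all genes higher in place of 4.41%. On the deposited scale it was 21, beside 7.41% of all genes higher, and in the 6 arrays of the set fitted alone it was 16, beside 5.46%. In all of these 0 fell. Markers of other lineages were higher in CMP. Erythroid markers averaged 7.74 to 7.82 in CMP and 6.72 to 7.21 in MPP4, with 4 of 7 higher. Megakaryocyte markers averaged 8.53 to 8.56 and 6.96 to 7.35, with 5 of 6 higher, and monocyte and macrophage markers 7.60 to 7.93 and 6.86 to 7.13, with 4 of 8 higher. Their part in the members' rise was not tested.

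GMP against CMP crosses sets and rests on GMP 4. In the set-adjusted fit limma called 0 members, beside 0.632% of all genes higher and 0.692% lower, while 6 had an unadjusted p under 0.05 and 2 rose in the fit without sets, beside 5.44% of all genes. The median change was 0.21. Complex III shows the limit: its level was 0.51, 0.536 and 0.527 in GMP 1 to 3 but 0.193 in GMP 4, against 0.111 to 0.262 in CMP. Its median change was -0.13 with the set term and 0.15 without it, so no direction is given.

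MPP2 were compared with ST-HSC within 1 set, 3 arrays against 3. Of the members 12 rose and 0 fell, beside 4.87% of all genes that rose and 5.95% that fell, and 6 were also called without sets, beside 2.8% of all genes higher in both fits. The median change was 0.22, against 0.07 for all genes. In complex I 7 of 41 rose, in complex II 1 of 4, in complex III 2 of 9 and in complex IV 2 of 19. Without ST-HSC 3, 7 rose and 0 fell, and without MPP2 1, 8 rose and 0 fell. Without MPP2 3, 14 rose and 4 fell, without Gr 1, 16 rose and 1 fell, and without Gr 3, 12 rose and 1 fell. The count that rose was 5 in the arrays of the set fitted alone, where 2.11% of all genes rose.

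Cox6b2 was at 9.69, 9.48 and 9.64 in ST-HSC and 10.56, 10.34 and 10.51 in MPP2, with no overlap and a rise of 0.87 (SE 0.18, adjusted p = 2.55e-03). Ndufb8, a subunit of the membrane arm, was at 9.77, 9.84 and 9.55 in ST-HSC and 10.85, 10.11 and 10.18 in MPP2. It rose by 0.66 (SE 0.17, adjusted p = 1.42e-02), with MPP2 1 far above the others, and by 0.42 without that array, which ended the call. Ndufv1 rose by 0.65 (SE 0.12, adjusted p = 5.59e-04) and Ndufs6, a zinc-binding subunit of the NADH-oxidising module, by 0.63 (SE 0.16, adjusted p = 1.32e-02). Ndufa1 rose by 0.60 (SE 0.10, adjusted p = 2.13e-04).

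Uqcrc1 was at 9.12, 9.0 and 8.84 in ST-HSC and 9.69, 9.52 and 9.46 in MPP2, a rise of 0.57 (SE 0.14, adjusted p = 9.54e-03), without overlap. Sdhb rose by 0.55 (SE 0.15, adjusted p = 2.05e-02) and was not called without sets. Sdha changed by -0.24, Sdhc by -0.18 and Sdhd by 0.57, none of them called. Sdhd was at 10.32 in MPP2 1 against 8.15 and 8.44 in the other MPP2 arrays. Of the 12 members that rose here, 5 were among the 10 that rose in CMP against MPP4: Cox6b2, Ndufb7, Ndufb8, Ndufv1 and Uqcrc1. These comparisons also share the estimate of the spread, and the overlap was not tested.

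Erythroid markers averaged 7.72 to 7.98 in MPP2 and 7.0 to 7.15 in ST-HSC, with 4 of 7 higher and 0 lower. Megakaryocyte markers averaged 8.43 to 8.80 and 7.8 to 8.10, with 4 of 6 higher and 1 lower. Both lists also averaged higher in CMP than in MPP4, and their part in the members' rise was not tested. MPP3 against ST-HSC, 2 arrays against 3 within the set, gave 1 call, beside 1.96% of all genes that rose and 1.16% that fell. Ndufa1 was at 11.07, 11.28 and 10.96 in ST-HSC and 11.64 and 11.83 in MPP3 1 and 2, with MPP3 3, of another set, at 11.50. It rose by 0.63 (SE 0.11, adjusted p = 9.60e-04). The arrays of the set fitted alone did not call it (adjusted p = 0.0523). There 3 of 8 B and plasma cell markers and 2 of 9 T and NK cell markers were higher in MPP3, and their part was not tested.

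Comparisons with LT-HSC gave few calls, and their direction depended on the set. LT-HSC 4 had a complex I level of -0.391, within the ST-HSC range of -0.408 to -0.212, while LT-HSC 1 to 3 lay at -0.006, 0.265 and 0.292. With the set term limma called 0 members in ST-HSC against LT-HSC, beside 0.918% of all genes higher and 0.552% lower, with 5 at an unadjusted p under 0.05, and without it 18 fell, beside 14.2% of all genes lower. In MPP4 against LT-HSC it called 0, beside 1.39% of all genes higher and 1.35% lower, with 5 at an unadjusted p under 0.05, and 1 higher and 6 lower without the set term, beside 24.7% of all genes in either direction. There the replicate numbers met the rule for pairing, and with replicate numbers as a block as well 2 members were called, both lower, beside 2.78% of all genes lower, which is near the background.

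In MPP2 against LT-HSC 2 members rose and 1 fell, beside 5.36% and 2.8% of all genes. Uqcrq, a small complex III subunit, and Cox7a1, a muscle isoform of complex IV, rose by 1.25 (SE 0.31, adjusted p = 2.02e-02) and 1.13 (SE 0.35, adjusted p = 4.52e-02), and neither was called without sets, where the changes were -0.10 and -0.13. Both rises rest on LT-HSC 4 and on MPP3 3, which links the sets. Uqcrq was at 9.90 in LT-HSC 4 and at 11.35, 11.52 and 11.51 in LT-HSC 1 to 3. In MPP2 it was at 11.21, 11.17 and 10.53. Cox7a1 was at 7.24 in LT-HSC 4 and 8.24 in MPP3 3, against 7.15 and 7.28 in MPP3 1 and 2. In MPP2 it was at 7.01, 7.68 and 7.39. Without sets 5 members rose and 11 fell, beside 17.3% and 18.8% of all genes. On the deposited scale 0 rose and 2 fell, beside 4.51% and 3.53% of all genes. With median centring 0 rose and 3 fell, beside 2.23% and 4.02%. Ndufs1 was at 9.18, 9.44, 9.31 and 9.20 in LT-HSC and 8.06, 8.52 and 8.95 in MPP2. It fell by 1.16 (SE 0.36, adjusted p = 4.75e-02), a call lost in 23 of the 29 fits that left out 1 array. In MPP3 against LT-HSC 2 rose and 0 fell, beside 4.33% and 2.32% of all genes: Sdhc by 0.65 (SE 0.18, adjusted p = 3.19e-02) and Cox7a1 by 0.99 (SE 0.29, adjusted p = 4.12e-02). The set-adjusted rises of Sdhc and Cox7a1 here set MPP3 3 alone against LT-HSC 4 alone, with the spread taken from other arrays. The fit without sets gave Sdhc -0.14 and Cox7a1 0.07, with 2 members higher and 12 lower, beside 12.8% and 14.8% of all genes. On the deposited scale 0 rose and 1 fell, beside 3.58% and 2.62% of all genes. Median centring gave the same counts, beside 1.61% and 3.53%.

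Of the 8 tissue-restricted isoforms in complex IV, Cox6b2 was the only one called in the comparisons within a set. Cox6b2 went from 9.69, 10.13 and 9.71 in PreGr to 9.09, 8.54 and 7.90 in Gr, a change of -1.33 (SE 0.18, adjusted p = 7.19e-06), or -1.62 without Gr 1. The muscle isoforms Cox6a2, Cox7a1 and Cox8b changed by 0.22, -0.21 and 0.23 in Gr against PreGr, the lung isoform Cox4i2 by 0.12, the testis isoforms Cox7b2 and Cox8c by 0.02 and 0.24, and Ndufa4l2, known for its rise in low oxygen, by -0.03. None of these 7 was called there. Of the 11 members with more than 1 probe set, Cox7a2l had probe sets of opposite sign in CMP against MPP4 (0.002 and -0.153), Uqcrb there (-0.002, 0.17 and 0.302) and Ndufb11 in MPP2 against ST-HSC (-0.142 and 0.148), as plain differences without sets. Cox7a2l was highest in LT-HSC 1 to 3, at 12.20, 12.25 and 12.07, with LT-HSC 4 at 11.68 and all other arrays at most 11.75. Those 3 arrays make up a set of their own, so population and set cannot be told apart in them. With the set term Cox7a2l changed against LT-HSC by -0.03 in ST-HSC, -0.33 in MPP2, -0.26 in MPP3 and 0.05 in MPP4, none called.

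Other genes of the pathway were taken from lists of ATP synthase, assembly factors outside the rule, biogenesis regulators and electron carriers. In Gr against PreGr 14% of all genes fell and 12.5% rose, and the counts of each list stand beside these shares. There 7 of 15 ATP synthase genes fell and 0 rose, led by Atp5g2 (-1.59) and Atp5g1 (-0.97), which encode the same ring subunit. Of 27 further assembly factors 6 fell and 2 rose. Uqcc1 (-1.86) and Uqcc2 (-1.33), which act in the building of complex III, fell most, followed by Sdhaf1 (-1.12), which serves the iron-sulfur subunit of complex II. Of 16 biogenesis regulators 6 fell and 0 rose. Lrpprc (-1.33) and Slirp (-1.04), partners that protect mitochondrial mRNAs, and Tfam (-1.14), which packages and transcribes mitochondrial DNA, led them. Among 17 electron carriers and donors 5 fell and 3 rose. Etfb, a subunit of the flavoprotein that carries electrons from fatty acid oxidation, fell by 1.63, while Sqor, which feeds electrons from sulfide, rose by 0.97 and Gpd2, which feeds them from glycerol phosphate, by 0.57.

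In PreGr against GMP, where 11% of all genes fell and 7.99% rose, 3 of 15 ATP synthase genes fell and 0 rose. Of the 27 assembly factors 7 fell and 0 rose, among them Sdhaf4 (-1.16), Bcs1l (-0.78), which inserts the Rieske protein, and Sco1 (-0.76), which delivers copper to complex IV. Of the 16 regulators 6 fell and 0 rose, with Tfb1m (-1.06), Lrpprc (-0.82) and Pprc1 (-0.76) named as called in both fits. Sqor rose by 1.53, and 4 of 17 carriers fell. In CMP against MPP4, where 4.41% of all genes rose and 2.82% fell, 3 of 15 ATP synthase genes rose and 0 fell. Ecsit (0.50), an assembly factor, Etfb (0.66) and Coq6 (0.65), a ubiquinone synthesis enzyme, rose as well, while 0 of 16 regulators were called. In MPP2 against ST-HSC Ppargc1a, the coactivator known as PGC-1alpha, fell by 1.20 and Tmem126b, a complex I assembly factor, by 1.68. Nubpl, which loads iron-sulfur clusters into complex I, rose by 0.57 there. Of 15 ATP synthase genes 2 rose, beside 4.87% of all genes.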

How the data were processed

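Per the labels' protocols, RNA was purified with PicoPure, amplified with NuGen Pico WTA and labelled with biotin. The authors deposited log2 values of 35557 probe sets, made with RMA per the submitters' processing notes. The version and the arrays normalized together are not given in the sources used here, and neither is any link between the arrays and the 5 sets. The sets were found from identical values: arrays of a set share at least 2, and arrays of different sets at most 1.

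Values were quantile-normalized over all 31 arrays. Of the probe sets, 21789 name 1 gene, 1621 several and 12147 none. The brightest of a gene's probe sets was kept, giving 19939 genes. limma 3.58.1 in R 4.3.3 fitted population means with the set as a block, with Benjamini-Hochberg adjustment over all genes. p-values cover the spread between arrays. The number of arrays limits the precision. The members and gene lists were chosen with earlier results of these data known. The rule for named genes took, per comparison and complex, up to 4 members in each direction called with and without sets, all complex II members, tissue-restricted isoforms and Cox7a2l, and up to 3 called genes per list. Other genes were chosen after their values were seen.

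Replicate numbers met the pairing rule in MPP4 against LT-HSC alone, with correlations of same-numbered deviations of 0.1543, 0.2135, 0.1258 and 0.2712. From group-and-set means the 3 that could be had were -0.0272, 0.0603 and -0.0293. The fit was tested on simulated data. Alternatives were no set, the deposited scale, median centring, a replicate block, 1 set alone, the mean of probe sets, the dimmest genes left out and each array left out. Ndufb1, Ndufb4, Ndufaf8 and Cox7c were not analysed here.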

Additional observations from a re-analysis of the deposited data

Results flagged for a closer look

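In 6 of 51 groups of 4 or 5 arrays tested, 1 array lay far from the others. Chance gives about 1 in 20 for independent groups. These groups share arrays, and the complex levels contain genes also tested alone, so no excess can be read from the count. MPP4 4 had a complex I level of -0.36, with the other MPP4 arrays up to -0.09, and an Ndufaf5 value of 8.23, with the others up to 8.87. GMP 4 had a complex III level of 0.19, with the others up to 0.54. It also stood at 9.92 for Cyc1 (others up to 10.77), 11.77 for Ndufa1 (up to 12.13) and 9.50 for Uqcr11 (up to 10.38). MPP4 4 and GMP 4 are in the same array set, and the set's part in these values was not tested.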

How the results depend on the processing

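Of 1250 alternatives computed for 33 results on 21 named genes, 1218 kept direction and call, 32 lost the call and 0 reversed. These results were chosen as called with and without sets, so the 33 alternatives without sets were bound to keep the call. Many others left out an array of a population outside the comparison. The share kept is therefore no measure of how firm the results are. Without the set term the counts of members called were 18 for ST-HSC, 16 for MPP2 (5 higher, 11 lower), 14 for MPP3 (2 higher, 12 lower) and 7 for MPP4 (1 higher, 6 lower) against LT-HSC, 6 for MPP2 and 2 for MPP3 against ST-HSC, and 2 for GMP against CMP. MPP3 against LT-HSC gave 1 on the deposited scale and 1 with median centring, both lower where the set-adjusted calls were 2 higher. MPP2 against LT-HSC, with 2 higher and 1 lower, gave 0 higher on both scales and 2 and 3 lower, and its median change of 0.27 became -0.02 and -0.09. CMP against MPP4 gave 21 and 33 on those scales, beside 7.41% and 13.2% of all genes higher. PreGr against GMP gave 17 lower with median centring, beside 14.9% of all genes lower. In a set fitted alone the count was 5 for MPP2 against ST-HSC, beside 2.11% of all genes higher. It was 0 for MPP3 against ST-HSC (1 in the fit of all arrays), beside 1.09%, and 16 for CMP against MPP4, beside 5.46%. With the replicate block 2 members were called in MPP4 against LT-HSC and 2 in GMP against CMP, and the count in each other comparison was within 1.5 times. That block could not be fitted for ST-HSC, MPP2 and MPP3 against LT-HSC. Leaving out 1 array gave 0 to 0 calls for ST-HSC, 0 to 6 for MPP2, 1 to 4 for MPP3 and 0 to 2 for MPP4 against LT-HSC, 7 to 18 for MPP2 (without MPP2 3, 14 higher and 4 lower) and 1 to 2 for MPP3 against ST-HSC, 7 to 12 for CMP against MPP4, 0 to 2 for GMP against CMP, 7 to 14 for PreGr against GMP and 27 to 45 for Gr against PreGr. The cause of these shifts was not tested.

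With median centring, complex I levels were -0.569 in ST-HSC, -0.254 in MPP2, -0.482 in MPP3, -0.333 in MPP4, 0.399 in CMP, 0.627 in GMP and 0.502 in PreGr. Those of its assembly factors were 0.460 in LT-HSC, -0.251 in ST-HSC, -0.148 in MPP2, -0.312 in MPP3, 0.542 in CMP and 0.716 in GMP. Complex II stood at 0.314 in LT-HSC, -0.476 in ST-HSC, -0.289 in MPP3, -0.231 in MPP4, 0.324 in CMP, 0.532 in GMP and 0.258 in PreGr. Complex III stood at -0.584 in ST-HSC, -0.321 in MPP2, -0.569 in MPP3, -0.340 in MPP4, 0.431 in CMP, 0.680 in GMP and 0.569 in PreGr. Complex IV stood at 0.248 in LT-HSC, -0.524 in ST-HSC, -0.256 in MPP2, -0.449 in MPP3, -0.276 in MPP4, 0.353 in CMP, 0.435 in GMP and 0.495 in PreGr. In the set-adjusted fit complex I was 0.028 in MPP2 and its assembly factors 0.220 in CMP. Complex II was -0.340 in LT-HSC, -0.064 in ST-HSC and 0.210 in CMP. Complex III was -0.019 in MPP2, -0.126 in MPP3, -0.000 in MPP4, 0.356 in CMP and 0.188 in PreGr, and complex IV was -0.045 in MPP2 and 0.251 in GMP.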

Other observations

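Xist, the RNA made from the inactive X chromosome of females, varied between arrays of one population along with the replicate number. It was at log2 values of 5.36, 11.39 and 10.24 in LT-HSC 1 to 3, 5.39, 11.41 and 9.91 in MPP4 1 to 3, and 6.03, 11.14 and 9.56 in CMP. In GMP 1 to 3 it was at 5.70, 10.36 and 9.0, in PreGr at 5.10, 10.13 and 8.77, and in Gr at 5.11, 9.72 and 8.25. In all of these populations number 1 was lowest and number 2 highest. Eif2s3y, a gene of the Y chromosome, was lowest in number 2 of the same populations, as in Gr at 10.12, 8.81 and 9.99. In LT-HSC 4, GMP 4, MPP3 3, MPP4 4 and MPP2 2 Xist was at 11.23 to 12.17 and Eif2s3y at 4.10 to 4.51. Whether same-numbered arrays share animals, and whether this touches Ndufa1 on the X chromosome, was not tested.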
